A study of Homo sapiens with 22 samples.

Results

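Genomic binding of the D538G form of estrogen receptor alpha (ESR1) in cells without added hormone was compared with binding of the wild-type receptor after 1 h of estradiol (E2). The members were the 6 chromatin immunoprecipitation sequencing (ChIP-seq) libraries of D538G cells given DMSO and the 4 libraries of wild-type cells given E2, which is 10 of the 22 samples of the series and 10 of its 20 peak lists. They were chosen by genotype and treatment as the labels give them, and no measured value entered the choice. All cells were Ishikawa, an endometrial adenocarcinoma line, in which ESR1 carried a FLAG tag. They were held for at least 5 days in phenol-red-free medium with charcoal-stripped serum and then treated for 1 h, either with 10 nM E2 or with the solvent DMSO at 0.1%. The D538G libraries came from 3 clones and the wild-type libraries from 2 clones, with 2 replicates each, so a difference between genotypes is also a difference between these clones. Nothing in the labels says whether replicates were separate cultures, and p-values measure only the spread between these libraries.

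ESR1 is a nuclear receptor that binds estradiol in its ligand-binding domain, moves a helix of that domain into an active position and recruits coactivators at estrogen response elements and at sites held by other factors. In endometrial epithelium it carries the growth response to estrogen. The D538G substitution, aspartate to glycine near the start of that helix, occurs in breast and endometrial cancers and is known to let the receptor act without hormone. The comparison asks how close the sites bound by the mutant receptor without hormone come to those that hormone gives the wild-type receptor.

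Each library had 1 list of peaks in hg19 coordinates with a width, a summit (the base of highest signal) and the authors' signal value. No reads were at hand, so the depth behind a list is unknown. In the D538G DMSO libraries the lists of clone 1 held 12963 peaks in replicate 1 and 50382 in replicate 2, those of clone 2 held 4032 and 54903, and those of clone 3 held 9850 and 1619. In the wild-type E2 libraries the lists of clone 1 held 8206 and 35344 peaks and those of clone 2 held 5757 and 31108. The groups overlapped over nearly their whole range. The means of the log10 peak number were 4.06 ± 0.602 (SD, n = 6) and 4.18 ± 0.40 (SD, n = 4), and the difference was smaller than the spread between libraries (−0.12, p = 0.733, two-sided exact permutation test over 210 splits, smallest possible p 0.00476). The sign of this difference turned without D538G DMSO clone 3 replicate 2 (0.0518) and without wild-type E2 clone 1 replicate 2 (0.00473). The names inside the D538G clone 2 replicate 1 list contain the word Ctl under both DMSO and E2, and under E2 the D538G lists of clone 2 replicate 2 and clone 3 replicate 2 held 1977 and 49223 peaks, the reverse of the order under DMSO. Groups were taken from the labels, and each result was also computed without each of these DMSO lists.

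Most sites found in at least 2 libraries of the unliganded mutant were also found in at least 2 of the estradiol-bound wild type. The 20 lists were joined into 93612 regions wherever their peaks shared 1 bp or more, and a library with a peak in a region was taken to bind it. Regions bound in at least 2 libraries numbered 26540 for D538G DMSO and 26600 for wild-type E2, and 19559 were in both sets. These were 73.7% of the D538G set and 73.5% of the wild-type set. Outside these sets, 47213 regions had a peak in only 1 D538G DMSO library, and 39421 (83.5%) of them had no wild-type E2 peak. The share of the wild-type set depended on the 2 longest D538G lists and was 42.5% without clone 1 replicate 2 and 45.2% without clone 2 replicate 2. The longest list of wild-type cells under DMSO, clone 1 replicate 2, alone held 17247 of the 26600 regions of the wild-type set and 17823 of the 26540 of the D538G set. The other wild-type DMSO lists, which were far shorter, held 38, 38 and 972 of the 26600. By the same count of single lists, the D538G DMSO lists held 10289 and 22887 in clone 1, 3458 and 18205 in clone 2, and 7849 and 1426 in clone 3. A single long wild-type list without hormone thus also held a large part of both sets. Such a count is not the same measure as the 73.5%, which needed 2 D538G libraries.

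The strongest sites of the mutant overlapped more closely. Of the regions under the 500 strongest peaks of each D538G DMSO list, between 98.2% and 98.8% had a peak in at least 2 wild-type E2 lists. Among the 1500 strongest this share was 96.4% and 95.4% in the 2 lists of clone 1, 95.3% and 97.4% in those of clone 2, and 95.6% and 96.9% in those of clone 3. The reverse share, of the 1500 strongest peaks of each wild-type E2 list in at least 2 D538G DMSO lists, was 89.2% and 87.9% for the replicate 1 lists of clones 1 and 2 and 99.3% and 99.1% for their replicate 2 lists. The 1500 strongest peaks of the wild-type replicate 1 lists were thus the least often found in the mutant. They are a larger part of those lists, of 8206 and 5757 peaks, than of the replicate 2 lists, of 35344 and 31108. In D538G DMSO clone 3 replicate 2 they are nearly the whole list of 1619 peaks.

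Seen from the wild type, 4653 regions had a peak in all 4 E2 libraries, and the mutant without hormone bound the strong ones in nearly every library and the weak ones in few. Of the 4653 regions, 2789 (59.9%) had a D538G DMSO peak in each of the 3 clones, 619 in 2 clones, 486 in 1 clone and 759 (16.3%) in none. By library, the D538G DMSO lists held 59.6% and 77.0% of them in clone 1, 53.5% and 51.5% in clone 2, and 66.7% and 26.6% in clone 3. Wild-type cells under DMSO, the background of this experiment, held 0.774% and 39.4% in clone 1 and 0.774% and 18.1% in clone 2. These lists were of very unlike length, with 51 and 29118 peaks in clone 1 and 45 and 1080 in clone 2. The lists of 51 and 45 peaks could hold only few of the 4653 regions, so their low shares do not measure the background. All 6 mutant lists lay above 3 of the 4 wild-type DMSO lists, and the 26.6% of D538G clone 3 replicate 2 lay below the 39.4% of wild-type clone 1 replicate 2.

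Recovery rose with strength in the wild type. When the 4653 regions were split into 10 equal bins by their mean rank in the 4 E2 lists, 57.3% of the weakest bin and 99.8% of the strongest bin had a peak in at least 1 D538G DMSO library. All 6 libraries had a peak in 1.72% of the weakest bin and 59.6% of the strongest. The rise was not particular to the mutant. Wild-type DMSO clone 1 replicate 2 went from 9.66% of the weakest bin to 88.2% of the strongest, and clone 2 replicate 2 from 1.07% to 78.1%. Both lay above the 62.8% of D538G DMSO clone 3 replicate 2 in the strongest bin. The wild-type DMSO replicate 1 lists, of 51 and 45 peaks, reached 5.16% and 4.73% there.

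**Figure D1:**
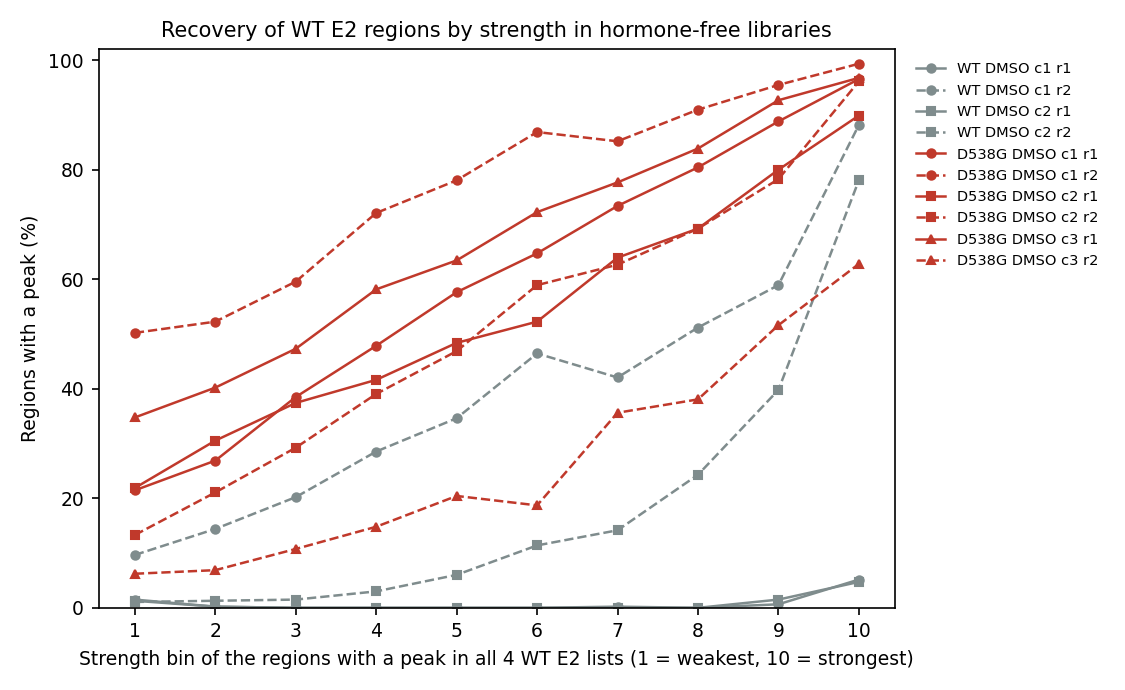
Percent of regions with a peak (vertical axis) in each of the 6 D538G DMSO libraries (red) and 4 wild-type DMSO libraries (grey), by strength bin among the 4653 regions with a peak in all 4 wild-type E2 lists (horizontal axis, 10 = strongest). c is the clone and r the replicate. D538G DMSO libraries rise from between 6.22% and 50.2% in the weakest bin to between 62.8% and 99.4% in the strongest. In the strongest bin the wild-type DMSO libraries stand at 5.16% and 88.2% in clone 1 and 4.73% and 78.1% in clone 2.

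Fisher's exact test then set the number of bound libraries in one group against the other, for the 37118 regions bound in 2 or more of the 10 libraries. No region passed a Benjamini-Hochberg adjusted p of 0.05 (0% called). At an unadjusted p under 0.05, 54 regions (0.145%) were bound more often in D538G DMSO and 1800 (4.85%) less often. With 6 against 4 libraries the smallest possible p is 0.00476, reached by a full contrast. A call after adjustment would have needed such a contrast in 9.52% of the regions, and 2.06% had it. These were 6 regions (0.0162%) bound in all 6 D538G DMSO and no wild-type E2 library and 759 (2.04%) with the opposite contrast. When each list was held to its 1500 strongest peaks, the counts were 35 (1.14% of 3073 regions tested) and 41 (1.33%). The 6 regions became 41 without D538G DMSO clone 3 replicate 2, the shortest list, 13 without wild-type E2 clone 1 replicate 2 and 10 without D538G DMSO clone 2 replicate 2.

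The 759 regions bound in every wild-type E2 library and in no D538G DMSO library were mostly weak sites. The median width of the joined regions was 565 bp for the 759, against 1641 bp for the 779 regions bound in all 10 libraries. A joined region spans the peaks of every list with a peak there, so its width also grows with the number of such lists. The classes differ in that number by definition, so this gap is no measure of strength. The median signal percentile of the 759 among the 4653 regions was 29.0 and 16.3 in the 2 lists of wild-type clone 1 and 33.0 and 24.3 in those of clone 2, against 75.4 to 82.8 for the 779. Of the 759, 741 had no peak in any wild-type DMSO library, and 714 (94.1%) had a peak in at least 1 of the 6 D538G E2 libraries, against 98.9% of the 4653 regions and 82.7% of all regions tested. In at least 2 of these libraries the shares were 80.0%, 95.9% and 57.1%. By D538G E2 list, 610 and 276 of them had a peak in clone 1, 278 and 14 in clone 2, and 666 and 21 in clone 3. Shares of this kind move with the length of a list. The D538G E2 list of clone 3 replicate 2, with 49223 peaks, nevertheless held 21 of the 759 regions, and that of clone 1 replicate 1, with 12566 peaks, held 610.

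The wild-type-only regions also lay elsewhere on the chromosomes. Chromosome 17 held 2.11% of them against 6.52% of all regions tested, chromosome 19 held 1.45% against 6.95%, and chromosome 16 held 0.659% against 4.90%. Chromosome 4 held 8.04% against 3.94%, and chromosome 6 held 8.17% against 4.42%. The 461 of the 4653 regions with a peak in 1 D538G DMSO library departed the same way by less. Chromosomes 16, 17 and 19 held 3.90%, 4.12% and 2.39% of them, and chromosomes 4 and 6 held 6.72% each. Of all 4653 regions, chromosomes 16, 17 and 19 held 3.20%, 5.27% and 3.95%, and chromosomes 4 and 6 held 5.54% and 5.72%. The median distance to the nearest of the 779 shared regions was 2562048 bp, against 193930 bp between the shared regions themselves and 704051 bp for the 4653 regions. The wild-type-only regions were thus fewer on chromosomes 16, 17 and 19 and lay farther from the shared sites, and the chromosome shares were in part those of the 4653 regions.

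Among these 759, the 8 with the strongest wild-type peaks stood well above the class as a whole. The first, chr7:29588329-29589074, lay at percentiles 99.5 and 91.4 of all peaks in the clone 1 lists and 99.7 and 96.7 in the clone 2 lists. Another of the 8 lay 741 bp away, at chr7:29587025-29587587, with percentiles of 92.6, 86.5, 91.5 and 94.1 in the same order. The region chr5:167723619-167724275 lay at percentiles 99.2, 91.7, 92.8 and 92.1. These 3 regions were thus near the top of every wild-type E2 list. The other 5 were chr9:2469558-2470487, chr8:111188673-111189689, chr10:65446969-65447623, chr17:19605243-19606096 and chr8:84259687-84260544, with mean percentiles of 90.6 to 92.5. None of the 8 had a wild-type DMSO peak, and each had a peak in 1 to 3 of the 6 D538G E2 libraries. For each the adjusted p was 0.231 (Fisher's exact test, Benjamini-Hochberg adjustment).

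On the mutant side, 6 regions were bound in all 6 D538G DMSO libraries and in no wild-type library under either treatment. The strongest was chr9:138270156-138273124, which lay at percentiles 99.6 and 99.9 of all peaks in the lists of clone 1, 88.1 and 99.9 in clone 2, and 99.8 and 97.9 in clone 3. It was therefore a strong site in all 3 clones, and it was bound in all 6 D538G E2 libraries. The region chr5:67829596-67830722 lay at 88.6, 98.6, 62.3, 97.7, 95.4 and 79.7 in the same order, and chr2:134250266-134251284 at 94.3, 79.9, 97.0, 62.7, 82.3 and 77.3. The region chr3:43135787-43137107 had a mean percentile of 78.5, chr2:11628036-11629902 of 73.7 and chr9:101639234-101640142 of 73.5. The last of these reached only 6.6 in clone 3 replicate 2, and chr2:11628036-11629902 only 0.32 in clone 2 replicate 1. All 6 regions had peaks in 4 to 6 of the D538G E2 libraries, and for each the adjusted p was 0.231 (Fisher's exact test, Benjamini-Hochberg adjustment).

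The next 2 regions had all 6 D538G DMSO libraries and 1 wild-type E2 library. The first, chr17:27438654-27441000, lay at percentiles 97.2, 98.7, 83.2, 99.8, 99 and 84.4 in the mutant and 50.6 in wild-type clone 1 replicate 2. The other, chr2:238448123-238450237, had a mean percentile of 79.5 in the mutant and 24.1 in that wild-type list. The single wild-type list with a peak was the longest of its group in both cases.

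A looser mutant side, bound in at least 2 D538G DMSO libraries and no wild-type E2 library, held 4177 regions, against 2786 on the wild-type side by the same rule. Of the 4177, 2854 (68.3%) had peaks only in the 2 longest lists, clone 1 replicate 2 and clone 2 replicate 2, and 340 had a peak in all 3 clones. Under D538G E2, 2793 of them had a peak in at least 1 library, and 1062 had a wild-type DMSO peak, 1059 of these in clone 1 replicate 2. Chromosome 17 held 8.74% of these regions and chromosome 19 held 6.94%, against 6.52% and 6.95% of the regions tested. Chromosomes 4, 6 and 16 held 2.42%, 2.82% and 4.62%, against 3.94%, 4.42% and 4.90%.

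The 779 regions with a peak in all 10 libraries allowed the order of strength to be compared. They were 89.6% of the 869 regions bound in all 6 D538G DMSO libraries and 16.7% of the 4653 bound in all 4 wild-type E2 libraries. Regions were ranked within each library by the signal of their strongest peak, with rank 1 the strongest. The order was similar within the wild-type group and much less so between groups. Spearman's rho over the 779 regions, a description across regions that share their libraries, averaged 0.276 over the 24 pairs between groups (−0.09 to 0.581), 0.433 over the 15 pairs of D538G DMSO libraries (−0.10 to 0.799) and 0.618 over the 6 pairs of wild-type E2 libraries (0.383 to 0.894).

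Pairs with the same replicate number were more alike. The 2 same-number pairs of wild-type libraries, which are from different clones, had rho of 0.887 and 0.894, above the 0.486 and 0.515 of the 2 pairs from the same clone. Between groups the mean was 0.358 for pairs of equal number and 0.195 for the others. In the D538G DMSO group, clone 1 replicate 1 and clone 3 replicate 1 were closest (0.799), and clone 1 replicate 2 and clone 3 replicate 2 were farthest apart (−0.10). The D538G library closest to the wild type was clone 2 replicate 2, with rho of 0.581 and 0.481 to the wild-type replicate 2 libraries.

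**Figure D2:**
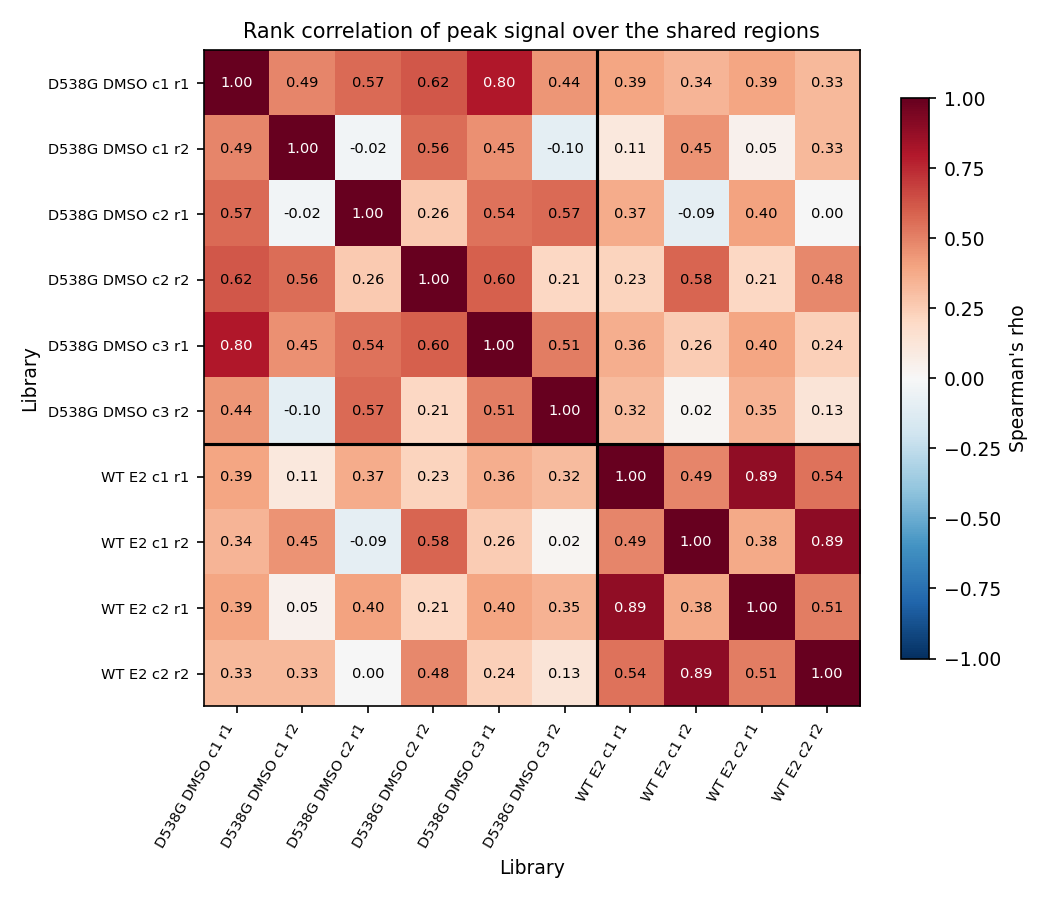
Spearman's rho of the signal ranks over the 779 shared regions for each pair of the 10 libraries (both axes, c clone, r replicate, colour from −1 to 1). Black lines part the 6 D538G DMSO libraries from the 4 wild-type E2 libraries. The block between groups averages 0.276 and the wild-type block 0.618.

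The 4 strongest shared regions by mean rank stood high in both groups. At chr4:3462347-3473468 the ranks were 21 and 220 in clone 1, 137 and 45 in clone 2, and 24 and 21 in clone 3 of D538G DMSO, and 49 and 136 in clone 1 and 44 and 53 in clone 2 of wild-type E2. This region was 11122 bp wide and held 3 to 8 peaks per library. The summit of the ranked peak lay 6492, 6436, 6513, 1176, 1152 and 6516 bp from its start in D538G DMSO. In wild-type E2 it lay at 1178, 1137, 1137 and 1146 bp, so the ranks there are in part those of different peaks. At chr11:69064094-69068196 the ranks were 66, 220, 81, 43, 27 and 65 against 56, 104, 24 and 94, and at chrX:39753480-39755406 they were 24, 3, 193, 51, 45 and 164 against 146, 38, 85 and 41. The groups overlapped at each of these 3 regions, and no rank difference passed limma's test (adjusted p of 0.818 to 0.924). At chr1:10811172-10813750 the mutant ranks of 1, 19, 95, 39, 3 and 96 reached above all wild-type ranks of 51, 56, 184 and 221, with an overlap between 51 and 96 (adjusted p = 0.169, limma).

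Limma on the normal scores of the ranks called 109 of the 779 regions at an adjusted p under 0.05. Of these, 54 (6.93%) ranked higher in D538G DMSO and 55 (7.06%) ranked lower. Ranks are relative within a library, so a region's rank also moves when others do. In 91 of the 779 regions (11.7%) the ranks of the 2 groups did not overlap, and 72 of these were among the 109. All 109 kept their direction without each library in turn, but the count fell to 66 without D538G DMSO clone 1 replicate 1, 57 without clone 3 replicate 1, 45 without wild-type E2 clone 1 replicate 1, 59 without clone 1 replicate 2 and 48 without clone 2 replicate 2. Without D538G DMSO clone 3 replicate 2, the shortest list, 1551 regions were shared and 226 of these passed, among them 83 of the 109. Within replicate number 1, with 3 against 2 libraries, 108 regions passed. Within replicate number 2 none passed (0 of 779, smallest adjusted p 0.0694, limma). There all 109 had the same direction and 73 had an unadjusted p under 0.05.

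Of the regions that ranked higher in the mutant, the 5 with the smallest p ranked above every wild-type library in all 6 mutant libraries. At 4 of them the wild-type ranks lay near the bottom of the order, and at the fifth around its middle. At chr4:154098830-154099795 the ranks were 122, 100, 60, 72, 156 and 55 in D538G DMSO and 680, 624, 693 and 742 in wild-type E2 (normal-score difference 2.42 ± 0.33 SE, adjusted p = 0.000291, limma). All 6 mutant libraries thus lay far above all 4 wild-type libraries. At chr5:168507557-168509229 the ranks were 343, 515, 364, 161, 190 and 313 against 778, 737, 772 and 773, which is the end of the wild-type order (2.58 ± 0.37 SE, adjusted p = 0.000383, limma). At chr2:11655122-11656498 they were 89, 440, 77, 81, 44 and 212 against 676, 687, 742 and 769 (2.51 ± 0.40 SE, adjusted p = 0.000747, limma). The other 2, chr3:43037953-43038885 and chr3:197318244-197319642, had mean ranks of 292 ± 126 (SD, n = 6) and 68.0 ± 60.04 (SD, n = 6) in the mutant and 719 ± 23.8 (SD, n = 4) and 478 ± 119 (SD, n = 4) in the wild type. Of these 5 regions, chr4:154098830-154099795 alone had a wild-type DMSO peak, in 1 library.

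Of the regions that ranked lower, the first was near the top of the wild-type order and below the middle of the mutant order. At chr9:137229362-137231549 the ranks were 6, 10, 5 and 13 in wild-type E2 and 544, 498, 535, 623, 478 and 660 in D538G DMSO (−2.93 ± 0.32 SE, adjusted p = 2.95e-05, limma). The 4 wild-type libraries agreed within 8 ranks. At chr17:4478758-4479891 the ranks were 21, 14, 56 and 29 in the wild type and 480, 333, 644, 692, 750 and 626 in the mutant (−2.64 ± 0.39 SE, adjusted p = 0.000431, limma). At chr14:77422192-77424915 they were 48, 55, 32 and 18 against 670, 485, 612, 406, 518 and 566 (−2.24 ± 0.33 SE, adjusted p = 0.000431, limma). The other 2 were chr9:139651271-139653303, at 53.4 ± 84.0 (SD, n = 4) in the wild type and 583 ± 143 (SD, n = 6) in the mutant, and chr19:56180659-56182705, at 231 ± 92.9 (SD, n = 4) and 728 ± 41.7 (SD, n = 6). All 5 had wild-type DMSO peaks, in 2 to 4 libraries.

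The 2 groups of changed regions also differed in the wild-type DMSO libraries. Of the 54 regions that ranked higher in the mutant, 27 had no peak in any wild-type DMSO library, against 210 (27.0%) of all 779. Of the 55 that ranked lower, 44 (80.0%) were bound in 2 or more wild-type DMSO libraries, against 47.9% of all 779. Regions that hormone-free wild-type cells already bound were thus common among those that ranked lower in the mutant. The rank test chose the 55 for high and the 54 for low wild-type E2 ranks relative to the mutant. Wild-type DMSO peaks were commoner at regions strong in wild-type E2. Clone 2 replicate 2 held 1.07% of the weakest and 78.1% of the strongest of the 10 strength bins. These shares are therefore no independent readout, and the 779 were not matched to either group for strength. In wild-type DMSO clone 1 replicate 2, the longest list of that group, the median signal percentile among shared regions was 25.7 for the 27 regions with a peak that ranked higher and 65.5 for the 51 with a peak that ranked lower.

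The D538G E2 libraries took no part in the rank test, although they came from the same clones. There the 54 regions had median signal percentiles of 77.5 and 73.3 in clone 1, 78.6 and 69.0 in clone 2, and 70.3 and 64.6 in clone 3. The 55 regions had 37.5 and 33.7, 37.9 and 38.5, and 47.4 and 57.2 in the same order. The 54 thus lay above the 55 in all 6 libraries, by least in clone 3 replicate 2. At chr9:137229362-137231549 the D538G E2 percentiles were 43.3, 64.3, 24.5, 10.2, 49.2 and 55.9, and at chr4:154098830-154099795 they were 76.6, 63.8, 89.2, 62.9, 90.4 and 90.4.

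**Figure D3:**
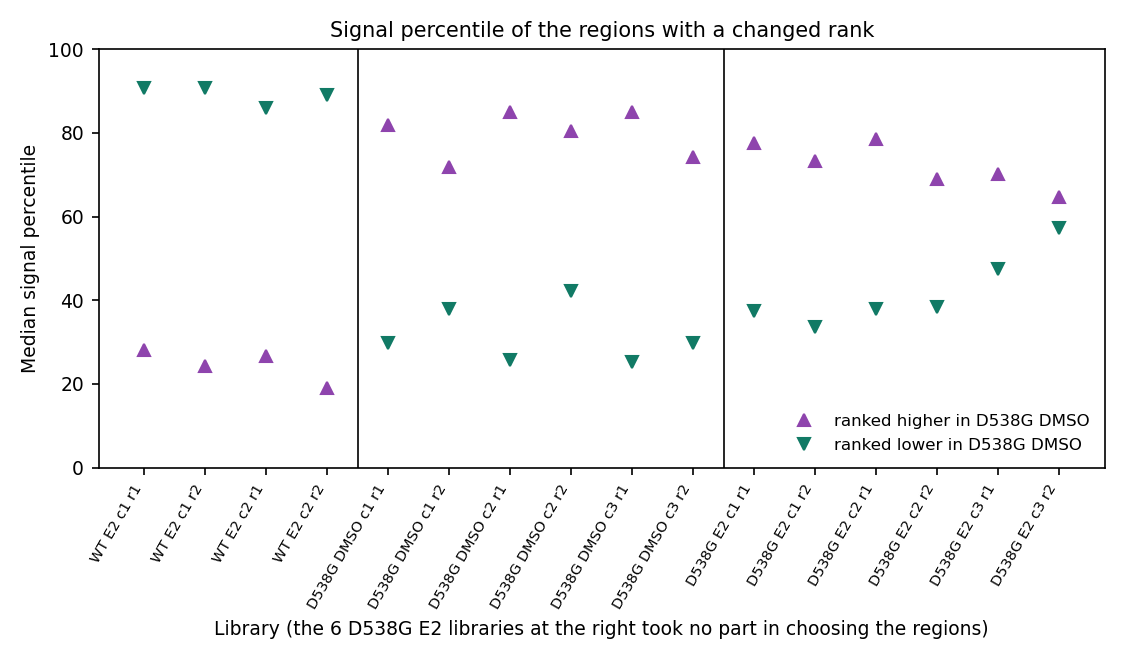
Median signal percentile (vertical axis) of the 54 regions that ranked higher (purple, upward) and the 55 that ranked lower (green, downward) in D538G DMSO, by library (horizontal axis, c clone, r replicate). The 4 wild-type E2 and 6 D538G DMSO libraries chose the regions, so their values are a description. In the 6 D538G E2 libraries the purple points lie at 64.6 to 78.6 and the green points at 33.7 to 57.2.

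Where a changed region had shared neighbours within 100 kb, these tended to differ in the same direction. Such neighbours were present for 22 of the 54 regions and 26 of the 55, against 331 of all 779. Within 100 kb of the 54 regions lay 32 shared neighbours, counted once for each changed region near them, and 22 (68.8%) of them ranked higher in the mutant. Around the 55 regions lay 49 neighbours, of which 36 ranked lower and 13 (26.5%) higher. Over neighbours of all 779 regions 42.0% ranked higher. Of the 6 mutant-only regions, chr2:11628036-11629902 lay 25219 bp from chr2:11655122-11656498, which ranked higher, chr3:43135787-43137107 lay 96901 bp from chr3:43037953-43038885, which also ranked higher, and chr9:138270156-138273124 lay 9985 bp from the region with the largest gain in width.

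Widths at the 779 shared regions varied more between libraries than between groups. The median width of the strongest peak was 837 and 1291 bp in clone 1, 502 and 701 bp in clone 2 and 810 and 365 bp in clone 3 of D538G DMSO, and 667 and 1325 bp in clone 1 and 586 and 1073 bp in clone 2 of wild-type E2. On the log2 scale the mean of the medians was 9.44 ± 0.633 (SD, n = 6) against 9.75 ± 0.557 (SD, n = 4), a difference of −0.31 (p = 0.448, two-sided exact permutation test; p = 0.733 after Benjamini-Hochberg adjustment over the tests of peak number and width). The replicate 1 libraries alone gave 0.159 (exact permutation p = 0.6) and the replicate 2 libraries alone gave −0.787 (exact permutation p = 0.3). In the wild-type group the longer lists had the wider peaks, and in the mutant group this held for all but the longest list, clone 2 replicate 2. The part of list length in these values was not tested.

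After each library's median log2 width was taken away, limma called 21 of the 779 regions, 18 (2.31%) relatively wider and 3 (0.385%) relatively narrower in D538G DMSO. At chr9:138283110-138286486 the widths were 2549, 3377, 2057, 2517, 2638 and 764 bp in D538G DMSO and 528, 798, 448 and 622 bp in wild-type E2 (relative log2 difference 2.17 ± 0.22 SE, adjusted p = 0.000153, limma). Its rank did not pass the test (−0.04 ± 0.47 SE, adjusted p = 0.978, limma), with mean ranks of 306 ± 236 (SD, n = 6) and 293.5 ± 73.9 (SD, n = 4). Only the 764 bp of clone 3 replicate 2, the shortest list, overlapped the wild-type widths. In D538G E2 its widths were 1130, 2184, 2620, 832, 2530 and 2834 bp, and in the 2 wild-type DMSO libraries with a peak they were 411 and 431 bp. At chr2:11655122-11656498, which also ranked higher, the widths were 909, 1194, 634, 701, 1006 and 596 bp against 377, 377, 236 and 288 bp (1.69 ± 0.25 SE, adjusted p = 0.00474, limma). At chr7:45453093-45454626 they were 1094, 1534, 880, 1072, 908 and 746 bp against 435, 830, 338 and 636 bp (1.25 ± 0.21 SE, adjusted p = 0.00857, limma).

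The 3 relatively narrower regions were chr6:37069656-37071860, chr2:25533572-25536571 and chr1:180135990-180139334. At the first the widths were 642, 1718, 577, 398, 794 and 244 bp in D538G DMSO and 1653, 2189, 1625 and 1981 bp in wild-type E2 (−1.30 ± 0.27 SE, adjusted p = 0.0206, limma). The mutant lists split this stretch into 2 peaks in 4 of 6 libraries, and the wild-type lists held 1 peak in all 4. At the second they were 512, 1677, 228, 515, 1393 and 250 bp against 1456, 2901, 1399 and 2433 bp (−1.45 ± 0.33 SE, adjusted p = 0.0320, limma). Width and rank moved together, since 48 of the 54 regions that ranked higher and 5 of the 55 that ranked lower were relatively wider, against 362 of all 779. The 21 calls fell to 8 without D538G DMSO clone 1 replicate 1, 13 without wild-type E2 clone 1 replicate 1, 7 without clone 2 replicate 1 and 12 without clone 2 replicate 2, and to 0 within replicate number 2 (smallest adjusted p 0.102, limma), where 15 of the 21 had an unadjusted p under 0.05.

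Summits lay close together within and between groups. The median distance between the summits of 2 libraries over the 779 regions was 31 bp for pairs between groups (19 to 43 bp), 29 bp within D538G DMSO (19 to 41 bp) and 33 bp within wild-type E2 (13 to 39 bp). Among pairs of equal replicate number the median was 29 bp between groups, 26 bp within D538G DMSO and 14 bp within wild-type E2, and among the other pairs it was 32, 29 and 35.5 bp. The wild-type libraries of equal number were thus closer to each other than to the mutant libraries.

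A single region passed limma's test of summit position, which is 0.128% of the 779 for a shift to a lower coordinate and 0% for the other direction. It was chr10:125255617-125258014. The summit lay 1411, 1406, 1406, 1382, 1399 and 1389 bp from the region's start in D538G DMSO and 1715, 1678, 1694 and 1687 bp in wild-type E2. The shift was −294.7 ± 9.67 bp (SE, adjusted p = 1.63e-07, limma), with means of 1399 ± 11.2 bp (SD, n = 6) and 1694 ± 15.8 bp (SD, n = 4). Both positions fell inside 1 peak in each library, for example 125256555 to 125257586 in wild-type clone 1 replicate 1 and 125256482 to 125257507 in D538G clone 2 replicate 1. The rank of the region did not pass the test (adjusted p = 0.737, limma). The D538G E2 libraries fell on both sides, with summits at 1423 and 1710 bp in clone 1, 1387 and 1691 bp in clone 2, and 1699 and 1601 bp in clone 3, and no wild-type DMSO library had a peak there. The region was called without each of the 10 libraries in turn. The count rose to 2 without D538G DMSO clone 1 replicate 2 or clone 2 replicate 1, 4 of 1551 regions without clone 3 replicate 2, 2 without wild-type E2 clone 1 replicate 2 and 3 without clone 2 replicate 2.

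Of the regions with the next smallest p for the summit, chr2:233298862-233300112 had summits at 465, 436, 481, 448, 456 and 435 bp in the mutant and 508, 539, 513 and 528 bp in the wild type (−68.5 ± 11.4 bp SE, adjusted p = 0.0705, limma). At chr17:49020301-49022885 they lay at 1693, 1800, 1747, 1763, 1806 and 1792 bp against 1635, 1695, 1629 and 1602 bp (126.6 ± 25.8 bp SE, adjusted p = 0.0970, limma). The groups did not overlap at the first and overlapped by 2 bp at the second. At chr12:287645-292157 (adjusted p = 0.0705, limma), the wild-type summits lay at 4023 to 4125 bp and the mutant ones at 843 to 2565 bp, in a region that held up to 4 peaks per library. The other 2, chr7:131222513-131224995 and chr18:3538535-3542046, had shifts of 279 and 1296 bp (adjusted p = 0.0970 and 0.159, limma).

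**Figure D4:**
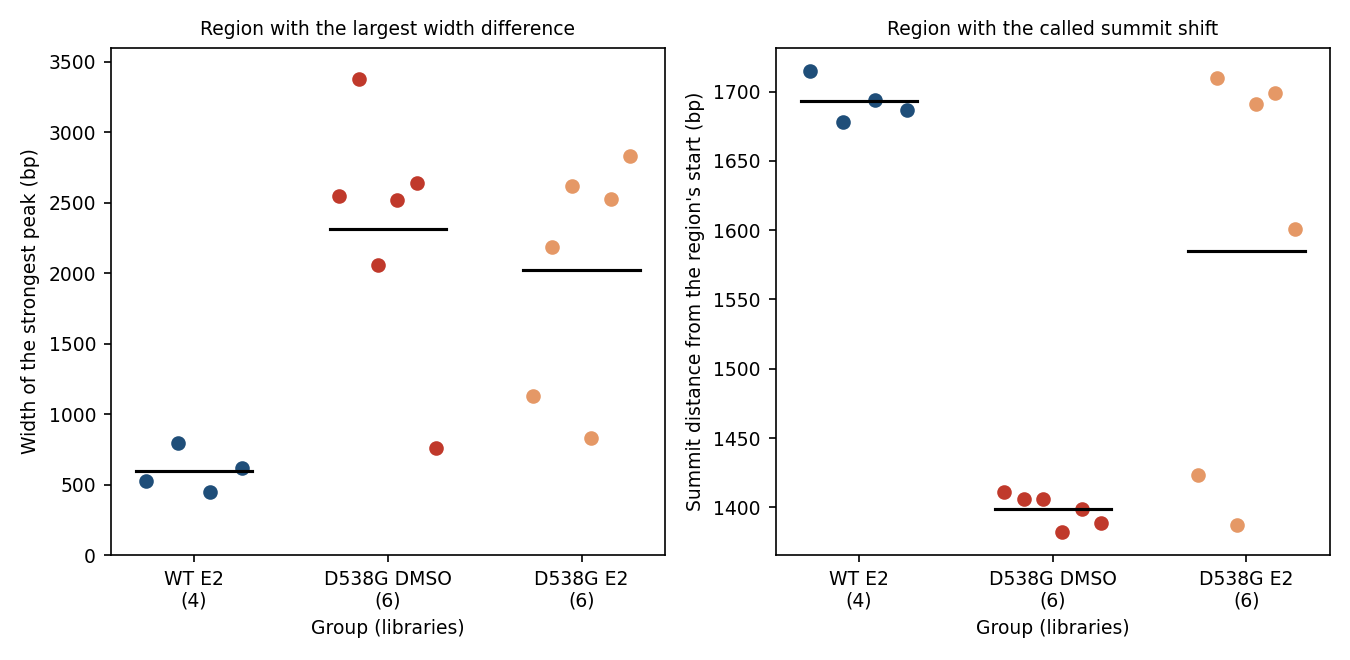
Left, width in bp of the strongest peak at chr9:138283110-138286486, and right, distance in bp of the summit from the region's start at chr10:125255617-125258014, in wild-type E2 (blue, n = 4), D538G DMSO (red, n = 6) and D538G E2 (orange, n = 6) libraries. Points are libraries and lines group means. The right panel shows the 2 summit positions, near 1399 and 1694 bp, with the D538G E2 libraries spread over both.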

How the data were processed

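Per the submitters' processing notes, the tools include Bowtie and MACS2 and the build is hg19. Which settings were used, and what the signal is relative to, is not given in the sources used here. The deposited lists have no header and follow the narrowPeak layout. Each holds the deposited peaks of 1 library, with coordinates, the authors' signal value, −log10 p, −log10 q and summit offset. Peaks on chromosomes 1 to 22, X and Y were merged over the 20 lists. Regions bound in 2 or more of the 10 libraries were tested by Fisher's exact test. At regions with a peak in all 10, the strongest peak of each library gave the rank, the log2 width less the library median, and the summit, which were tested with limma 3.58.1 in R 4.3.3. Adjustment was by Benjamini-Hochberg over all regions tested, with a threshold of 0.05. The rank fit and the occupancy test were run on simulated data with planted differences and libraries that varied independently. Clone and replicate number had no part in that simulation, so it does not show how these fits behave when libraries share spread. Named regions were up to 8 per side by Fisher p (ties by mean percentile), the 4 strongest shared, and those with the smallest limma p (5 each way for rank, 3 for width and summit). Members and rules were chosen with earlier results of these data known. Inputs, response elements and target genes were not analysed here. Intervals that need read depth were not computed.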

Additional observations from a re-analysis of the deposited data

Results flagged for a closer look

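Of 67 sets of 4 or 6 values searched for a single far value, 7 held one, where chance gives about 1 in 20. D538G DMSO clone 3 replicate 2, the shortest of the 10 lists, had a median summit distance of 38 bp to its own group, with the next library at 29 bp. At chr4:3462347-3473468 wild-type E2 clone 1 replicate 2 ranked 136, with the next at 53. At chr11:69064094-69068196 D538G DMSO clone 1 replicate 2 ranked 220, with the next at 81. At chr5:168507557-168509229 wild-type E2 clone 1 replicate 2 ranked 737, with the next at 772, so the far value lay toward the mutant ranks without reaching them. At chr9:139651271-139653303 wild-type E2 clone 2 replicate 1 ranked 178, with the next at 29. At chr6:37069656-37071860 the peak of D538G DMSO clone 1 replicate 2 was 1718 bp wide, with the next at 794 bp. At chr18:3538535-3542046 the summit of wild-type E2 clone 2 replicate 2 lay 2482 bp from the region's start, among the mutant positions, with the next wild-type library at 876 bp. Outside the nuclear chromosomes, D538G DMSO clone 3 replicate 2 had 2 peaks on the mitochondrial sequence, and the 4 wild-type DMSO lists had 0. The D538G E2 lists of clone 2 replicate 2 and clone 1 replicate 2 had 2 and 1 such peaks.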

How the results depend on the processing

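Of 186 values under alternatives, 129 kept their direction and their side of the threshold, or stayed within 1.5 times or the spread. Leaving out each library in turn gave peak number differences of −0.258 to 0.0518, 6 to 41 mutant-only and 761 to 1112 wild-type-only regions, shares of the wild-type set of 42.5% to 74.5%, 45 to 226 rank calls, 7 to 29 width calls and 1 to 4 summit calls. The regions tested for rank, width and summit then numbered 779 to 1551, and the 226 rank and 4 summit calls are of 1551, without D538G DMSO clone 3 replicate 2. The shared set was 57.7% with −log10 q of at least 20, 53.2% and 54.7% with the 1500 and 5000 strongest peaks, 64.0% with 200 bp summit windows, and 82.8% and 57.8% with a peak in at least 1 or 3 libraries. Mutant-only and wild-type-only regions numbered 35 and 41 with the 1500 strongest peaks and 27 and 98 with 5000. Width calls were 33 with clone means, 36 with summit windows and 37 of 400 regions with 1 peak per library, and summit calls were 21, 7 and 5. The within-replicate-number values were chosen after seeing the data. Within number 1 the peak number difference was 0.0667 and the width difference 0.159, with 416 and 1418 one-sided regions, a share of 59.0%, 32 width and 18 summit calls. Within number 2 there were 2594 wild-type-only regions, a share of 70.3%, 0 rank, 0 width and 17 summit calls. The cause was not tested, except that these settings use fewer libraries.

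Libraries with the same replicate number did not all deviate together (correlations of −0.324 to 0.527, mean 0.209, over 12 pairs), so the numbers were not treated as pairing. The negative values, −0.324 and −0.110, were those of D538G DMSO clone 3 replicate 2, the shortest list. Pairs of different number had a mean of −0.209 (−0.542 to 0.240, over 12 pairs), so replicate number did go with part of the spread. With replicate number as a block, 163 rank, 48 width and 1 summit regions passed, including all 109 rank and all 21 width calls, and the blocked occupancy test called 0 regions, with 14 and 1339 at an unadjusted p under 0.05 (Cochran-Mantel-Haenszel exact test). The shares of peaks with a response element and near target genes were planned and not run, since no hg19 sequence or annotation was used here. Read depth is unknown, so a missing peak is not an absence of binding.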
